A study of Mus musculus with 4 samples.

Results

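Folding of secreted and membrane proteins takes place in the endoplasmic reticulum (ER), and the 10 genes described here encode its main chaperones and the transcription factor of 1 branch of its stress response. They are Hspa5, Hsp90b1, Pdia3, Pdia4, Pdia6, Calr, Canx, Sdf2l1, Dnajb9 and Xbp1. The genes were chosen by symbol, and their isoforms were found through Ensembl transcript identifiers. All 10 were read in both liver libraries, among 33770 gene symbols, with 35 reference isoforms that carry these symbols. Of these, 3 (Hsp90b1, Canx and Xbp1) were also read in both embryo libraries, among 4200 symbols. Embryo values cover chromosomes 10, 11, 12 and 13 in the Adar1-/- Mavs-/- library. In the Adar1-/- library they cover chromosomes 10, 11 and 12, the last up to 11.7 Mb. Embryo shares and scaling thus rest on genes of this part, not on the whole genome.

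The study sequenced total RNA of mice that lack the RNA editing enzyme ADAR1, with or without MAVS, which relays signals from the RNA sensors RIG-I and MDA5. The groups were embryonic liver at E15.5 labelled Adar1-/- Mavs-/-, embryonic liver at E15.5 labelled Adar1-/- (strain label C57B6/J for both), whole embryo at E11.5 labelled Adar1-/- Mavs-/-, and whole embryo at E11.5 labelled Adar1-/- (strain label C57B16/N for both). Each group holds 1 library, and no group carries a wild-type Adar1 label, so every comparison is between a library labelled Adar1-/- Mavs-/- and one labelled Adar1-/-. Allele design and any pooling of animals were not given in the sources used here. No difference between groups therefore has a replicate check or a p-value, and each is a difference between 2 libraries. Levels are FPKM, a fragment count scaled for transcript length and library size, summed over the isoforms of a gene, and bounds are those of the estimate within a library. The log2 ratio is that of FPKM plus 1 in the Adar1-/- Mavs-/- library over the Adar1-/- library after scaling. A gene was counted from 1 FPKM in either library and called when its log2 ratio reached 1 in size (2-fold).

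When unfolded proteins gather in the ER, the sensor IRE1 cuts a short stretch out of Xbp1 mRNA, and the shifted reading frame then encodes the active transcription factor XBP1. A second sensor, ATF6, is cut in the Golgi to release another transcription factor, and the last sensor, PERK, phosphorylates eIF2alpha. ATF6, together with NF-Y, acts on chaperone genes through the ER stress element, a CCAAT box set 9 bases from CCACG, and XBP1 acts on these genes and on those for degradation of misfolded proteins. The fetal liver secretes large amounts of plasma protein from its hepatocytes while it is also the main site of blood formation, so a liver library mixes chaperone RNA of several cell types.

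The promoter sequences are shown because 5 of the genes hold the ER stress element in them. The genes were chosen by symbol, but the element is known from chaperone genes, so its share among them is a description only. The windows run from 250 bases before to 50 bases after each gene start in RefSeq (build GRCm38.p6), and all 10 genes matched. Both strands were searched for the ER stress element, read as CCAAT, any 9 bases, then CCACG. It was in 5 of the 10 windows, those of Hspa5, Hsp90b1, Pdia6, Calr and Canx, against 39 of all 32851 windows (0.119%). The first sequence is the whole Hspa5 window, chr2:34771840-34772139 on the plus strand, in which the capitals mark the fixed bases of the element.
Hspa5: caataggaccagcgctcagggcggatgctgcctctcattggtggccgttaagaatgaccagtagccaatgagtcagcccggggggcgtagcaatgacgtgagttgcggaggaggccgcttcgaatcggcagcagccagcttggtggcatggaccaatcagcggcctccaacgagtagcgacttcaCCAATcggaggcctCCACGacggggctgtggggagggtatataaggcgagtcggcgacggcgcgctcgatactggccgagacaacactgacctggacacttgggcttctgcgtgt

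The other windows are shown around the element only, with 20 bases on each side and read 5′ to 3′ on the strand of the gene. Capitals again mark the fixed bases, and in the Calr and second Hsp90b1 sequences the element lies on the opposite strand, so that CGTGG precedes ATTGG. Hsp90b1 is shown from chr10:86705618-86705676 and chr10:86705513-86705571 (minus strand), Pdia6 from chr12:17266471-17266529 (plus strand), Calr from chr8:84847055-84847113 (minus strand) and Canx from chr11:50325780-50325838 (minus strand).
Hsp90b1 first: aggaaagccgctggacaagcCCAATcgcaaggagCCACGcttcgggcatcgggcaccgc
Hsp90b1 second: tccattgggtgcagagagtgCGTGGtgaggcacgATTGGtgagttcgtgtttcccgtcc
Pdia6: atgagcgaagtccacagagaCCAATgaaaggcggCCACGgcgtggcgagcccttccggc
Calr: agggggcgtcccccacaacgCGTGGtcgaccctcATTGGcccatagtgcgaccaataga
Canx: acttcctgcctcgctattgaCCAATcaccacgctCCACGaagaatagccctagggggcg

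Counted from the gene start, the element lay from -65 to -47 in Hspa5, from -212 to -194 and -107 to -89 in Hsp90b1, from -98 to -80 in Pdia6, from -162 to -144 in Calr and from -145 to -127 in Canx. Its separate parts, which were also counted where they lie inside the element, are common. CCAAT was in 9 of the 10 windows and 37.4% of all windows, and CCACG was in 8 of the 10 and 32.8% of all. A related element, ATTGG and CCACG with 1 base between them, was in 0 of the 10 windows and 0.0365% of all, and TGACGTGG, a core sequence that XBP1 binds, was in 0 of the 10 and 0.676% of all. These are matches of letters in a window of 300 bases. They say nothing of binding, and the absence of a match says only that the letters are not in that window.

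**Figure D1:**
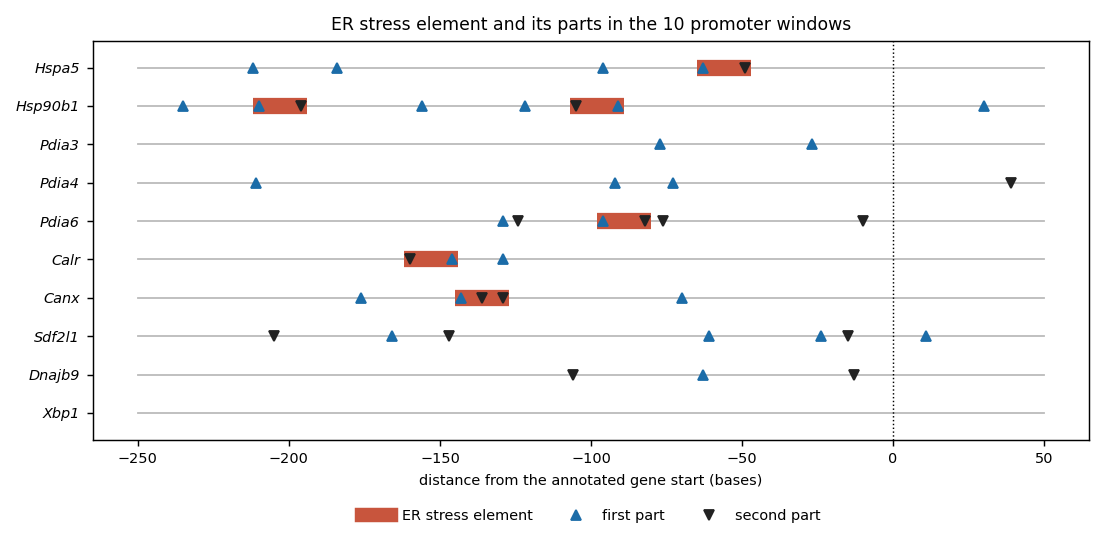
Positions of the ER stress element in the promoter windows of the 10 genes, with the distance from the annotated gene start in bases on the x axis and 1 gene per line. Red blocks are the element, upward triangles its CCAAT part and downward triangles its CCACG part wherever they occur on either strand. The element was in 5 windows, and Hsp90b1 held it at 2 positions.

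The 39 windows that hold the element belong to 37 symbols, of which 26 were read in liver and 18 had at least 1 FPKM in either library. Besides the 5 chaperone genes they included Creld2, Dnajc3, Derl3 and Syvn1 of the same folding and degradation pathways. In liver, 1 of the 13 counted genes that are not among the 10 was called higher and 4 were called lower in the liver library labelled Adar1-/- Mavs-/-. Their median log2 ratio was -0.15. The higher one was Derl3, which was listed at 0 in the liver library labelled Adar1-/-, and the lower ones were Creld2, Syvn1, Alg12 and Xlr3c, named here after their values were seen. The 5 chaperone genes with the element had 0 called either way and a median of -0.057, and the 5 of the 10 without it had 1 higher, 2 lower and a median of -0.58. With only isoforms that span at least 80% of the gene, the medians were 0.16 with the element and -0.33 without it, with 0 called among the 5 with it and 0 higher and 1 lower among the 5 without it. With FPKM weighted by isoform length they were 0.079 and -0.30, with the same counts. All counted liver genes had 6.60% higher, 9.73% lower and a median of -0.12.

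For Xbp1 the sequence that matters lies inside the mRNA. IRE1 cuts at a pair of CNGCAG sites, and the only such pair set 26 bases apart that all 3 coding reference isoforms hold is printed here from Xbp1-201 (ENSMUST00000063084, chromosome 11), bases 815 to 840 in capitals, with 20 bases on each side. The transcript sequence is that of the GENCODE M21 annotation.
Xbp1 stretch: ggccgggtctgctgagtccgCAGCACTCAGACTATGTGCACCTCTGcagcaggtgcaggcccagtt
Of the 4 reference isoforms with the Xbp1 symbol, 3 held the 26 bases and 0 joined the flanks without them. ENSMUST00000109866 and ENSMUST00000167803, deposited isoforms of the gene that have no sequence in this annotation, were not searched. The Xbp1 levels given here are totals over isoforms and are not split into spliced and unspliced mRNA.

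The labels were checked on Adar and Mavs in liver. Adar had 4.11 FPKM (bounds 3.86 and 4.36 FPKM) in the liver library labelled Adar1-/- Mavs-/- and 5.56 FPKM (bounds 5.28 and 5.84 FPKM) in the liver library labelled Adar1-/-. Among 8 Adar reference isoforms, 3 were above 0 in the liver library labelled Adar1-/- Mavs-/- and 0 in that labelled Adar1-/-. The level of Mavs was 9.96 FPKM in the liver library labelled Adar1-/- Mavs-/- and 7.26 FPKM in the liver library labelled Adar1-/-. Reference isoforms of Adar were thus above 0 in a library labelled as lacking it, and Mavs was not lower in the liver library labelled as lacking it, so liver directions are those between libraries with these labels. Whether the altered part of either gene is covered by these isoforms was not tested. Read depth as coverage per FPKM was 7.13 in the liver library labelled Adar1-/- Mavs-/-, 8.58 in that labelled Adar1-/-, and 5.62 and 3.48 in the embryo libraries with the same labels. All 12 hepatocyte markers were above 1 FPKM in both liver libraries, led by Alb with 6648 FPKM in the liver library labelled Adar1-/- Mavs-/- and 4787 FPKM in the liver library labelled Adar1-/-.

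In liver the isoforms that span at least 80% of the gene, called full-span here, of 9 of the 10 genes had log2 ratios between -0.41 and 0.32. The 3 calls made when all isoforms are summed rested on isoforms of shorter span. For Pdia3 that isoform spans 78.6% of the gene, just under the limit, so its full-span result depends on where the limit is set. Summed over isoforms, 1 of the 10 genes was called higher (Dnajb9) and 2 were called lower (Pdia3 and Sdf2l1) in the liver library labelled Adar1-/- Mavs-/-, against 6.60% and 9.73% of 13853 counted genes. The median log2 ratio of the 10 was -0.40 and that of all counted genes -0.12. With only isoforms that span at least 80% of the gene's reference span, 0 were called higher and 1 lower (Dnajb9), against 6.73% and 14.9% of 11136 genes, with a median of -0.089 against -0.19. With FPKM weighted by isoform length, which follows the fragments of the gene, 0 were called higher and 1 lower (Sdf2l1), against 6.18% and 9.19% of 13731 genes. Those medians were -0.12 for the 10 and -0.15 for all counted genes. Both of these sums were added after the isoform values were seen. In RNA of whole tissue, fewer cells of a type and less RNA per cell cannot be told apart.

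**Figure D2:**
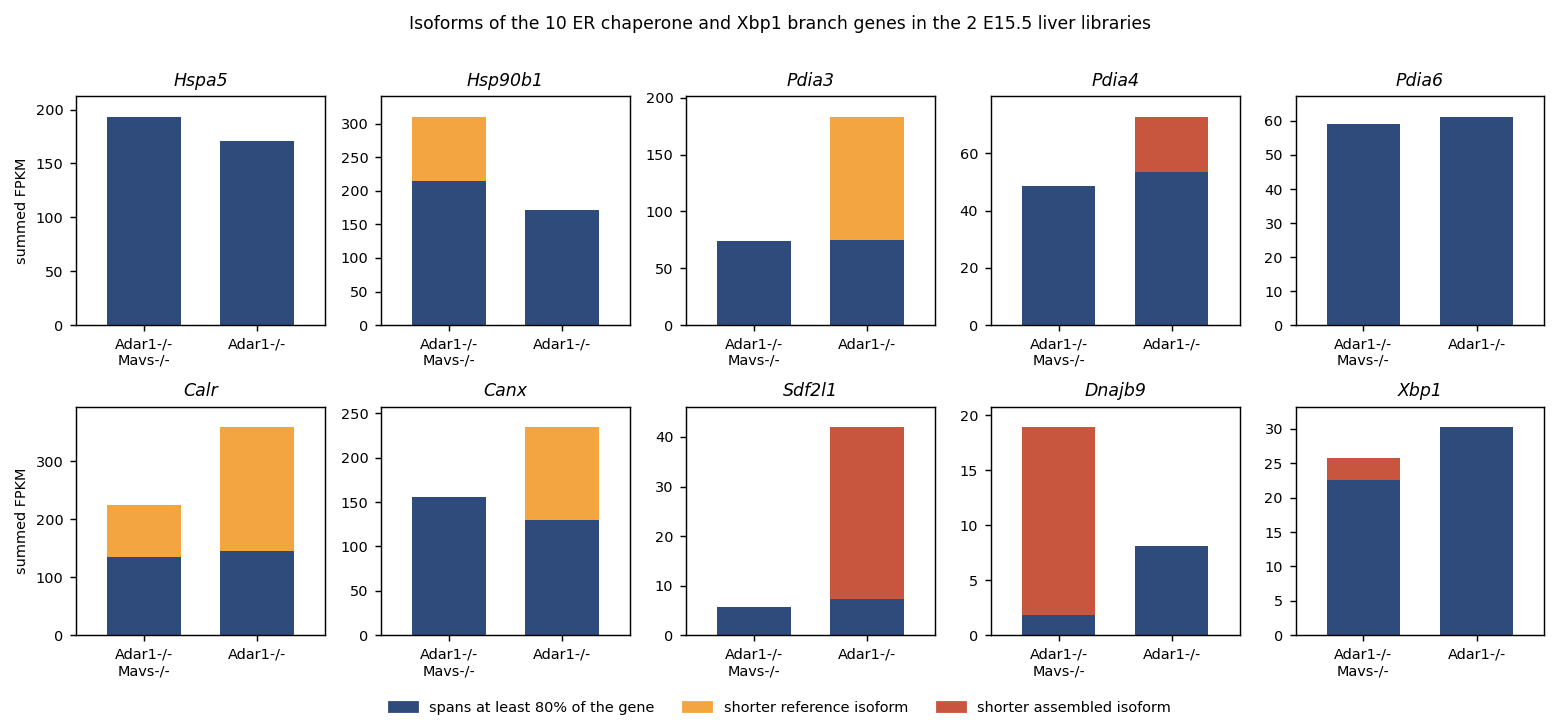
Summed FPKM of each of the 10 genes in the liver libraries labelled Adar1-/- Mavs-/- (left bar) and Adar1-/- (right bar), with a separate y axis per gene. Blue is the FPKM of isoforms that span at least 80% of the gene, orange that of shorter reference isoforms and red that of shorter assembled isoforms. The blue parts of Pdia3 were 74.4 and 74.9 FPKM, while its orange part was present only in the liver library labelled Adar1-/-, at 108 FPKM.

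Hspa5 (mm9 chr2:34627612-34632051) encodes BiP, the ER HSP70 that binds unfolded chains and holds the 3 stress sensors inactive. It had 192.9 FPKM (bounds 190.6 and 195.3 FPKM) in the liver library labelled Adar1-/- Mavs-/- and 170.9 FPKM (bounds 168.9 and 172.9 FPKM) in the liver library labelled Adar1-/-. Its coding isoform Hspa5-201 had 147.0 and 128.2 FPKM and its coding isoform Hspa5-202 had 45.9 and 42.7 FPKM in the same libraries, and the other 6 isoforms were listed at 0 in both. The log2 ratio was 0.17, and it was -0.15 when the libraries were scaled as TPM. TPM here means scaling to an equal FPKM total over the named genes that both libraries share. Hspa5 was the one gene of the 10 with more than 1 full-span reference isoform above 0 in liver, and these had similar proportions in both libraries.

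Dnajb9 (mm9 chr12:45306884-45311055) encodes ERdj4, a J-domain partner of BiP and a known XBP1 target. It had 18.9 FPKM (bounds 15.7 and 22.1 FPKM) in the liver library labelled Adar1-/- Mavs-/- and 8.09 FPKM (bounds 7.59 and 8.60 FPKM) in the liver library labelled Adar1-/-, a log2 ratio of 1.12. Of the first value, 13.3 FPKM (bounds 10.9 and 15.8 FPKM) belonged to an assembled isoform of 333 bases, chr12:45308980-45309312, and 3.71 FPKM (bounds 2.26 and 5.17 FPKM) to an assembled isoform of 1965 bases. The only reference isoform, Dnajb9-201, had 1.85 FPKM (bounds 0.352 and 3.35 FPKM) in the liver library labelled Adar1-/- Mavs-/- and 5.17 FPKM (bounds 4.75 and 5.59 FPKM) in the liver library labelled Adar1-/-. The log2 ratio was -1.12 with that isoform alone, -1.68 with full-span isoforms and -0.20 with length weighting. The direction of Dnajb9 thus turned with the way its isoforms were added, and no direction is given for it.

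Sdf2l1 (mm9 chr16:17130231-17132476) encodes a small ER protein that works with BiP and ERdj partners, and it is induced by ER stress. Its only reference isoform, Sdf2l1-201, had 5.68 FPKM (bounds 5.12 and 6.25 FPKM) in the liver library labelled Adar1-/- Mavs-/- and 7.36 FPKM (bounds 6.74 and 7.98 FPKM) in the liver library labelled Adar1-/-, a log2 ratio of -0.33. The bounds of the 2 values did not overlap, and the difference was under 2-fold. The liver library labelled Adar1-/- also held assembled isoforms of 249 and 310 bases with 18.9 and 15.7 FPKM, which the other library lacked. With them the sums were 5.68 FPKM (Adar1-/- Mavs-/-) and 41.9 FPKM (Adar1-/-), a log2 ratio of -2.69, and it was -1.33 with length weighting. Short assembled pieces made up 82.4% of the Sdf2l1 sum in the liver library labelled Adar1-/-.

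Hsp90b1 (mm9 chr10:86152954-86168254) encodes GRP94, the ER member of the HSP90 family, which folds receptors and integrins. The full-length coding isoform Hsp90b1-201 had 215.1 FPKM (bounds 212.9 and 217.2 FPKM) in the liver library labelled Adar1-/- Mavs-/- and 171.0 FPKM (bounds 162.6 and 179.3 FPKM) in the liver library labelled Adar1-/-. The shorter coding isoform Hsp90b1-203, of 1119 bases, had 94.6 FPKM in the liver library labelled Adar1-/- Mavs-/- and was listed at 0 in the liver library labelled Adar1-/-. The log2 ratio was 0.85 summed, 0.32 with the full-length isoform and 0.58 with length weighting. It was above 0 under all the scalings and sums run, between 0.32 and 0.98, but did not reach 2-fold in any of them.

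The lectin chaperones bind the trimmed sugars of new glycoproteins. Canx (mm9 chr11:50107969-50139175) encodes calnexin, the membrane-bound one. Its full-length isoform Canx-201 had 155.6 FPKM (bounds 154.1 and 157.1 FPKM) in the liver library labelled Adar1-/- Mavs-/- and 129.3 FPKM (bounds 128.0 and 130.6 FPKM) in the liver library labelled Adar1-/-. The isoform Canx-202, of 708 bases and annotated as a processed transcript with no coding sequence, was listed at 0 in the liver library labelled Adar1-/- Mavs-/- and had 104.9 FPKM in the liver library labelled Adar1-/-. The log2 ratio was -0.59 summed, 0.25 with the full-length isoform and 0.079 with length weighting, so its sign followed the short isoform.

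Calr (mm9 chr8:87365749-87370833) encodes calreticulin, the soluble lectin chaperone, which also stores calcium. Its full-length isoform Calr-201 had 57.1 FPKM (bounds 54.4 and 59.7 FPKM) in the liver library labelled Adar1-/- Mavs-/- and 145.5 FPKM (bounds 143.6 and 147.4 FPKM) in the liver library labelled Adar1-/-. In the liver library labelled Adar1-/- Mavs-/- an assembled isoform of 1675 bases that covers nearly the same span had a further 78.1 FPKM. With both, the full-span level was 135.1 FPKM (Adar1-/- Mavs-/-) against 145.5 FPKM (Adar1-/-), a log2 ratio of -0.12. Calr-204, an isoform of 943 bases annotated as a retained intron, had 89.5 FPKM in the liver library labelled Adar1-/- Mavs-/- and 212.8 FPKM in the liver library labelled Adar1-/-. It brought the summed log2 ratio to -0.68, and reference isoforms alone gave -1.29, past 2-fold. Length weighting gave 155.6 FPKM (Adar1-/- Mavs-/-) against 237.4 FPKM (Adar1-/-), a log2 ratio of -0.59. Calr thus lay below 0 under each of these ways of adding isoforms. With reference isoforms alone, 0 of the 10 genes were higher and 3 lower (Pdia3, Calr and Dnajb9), against 6.65% and 17.0% of 11447 genes.

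The protein disulfide isomerases make and rearrange disulfide bonds. Pdia3 (mm9 chr2:121239511-121264423) encodes ERp57, which works on glycoproteins bound to calnexin and calreticulin. Its full-length coding isoform Pdia3-201 had 74.4 FPKM (bounds 73.2 and 75.6 FPKM) in the liver library labelled Adar1-/- Mavs-/- and 74.9 FPKM (bounds 73.7 and 76.0 FPKM) in the liver library labelled Adar1-/-, with overlapping bounds and a log2 ratio of -0.020. Pdia3-203, of 722 bases and annotated as a target of nonsense-mediated decay, was listed at 0 in the liver library labelled Adar1-/- Mavs-/- and had 108 FPKM (bounds 105 and 111 FPKM) in the liver library labelled Adar1-/-. The summed log2 ratio of -1.29 came from that isoform, and length weighting gave -0.45.

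Pdia4 (mm9 chr6:47746141-47763511) encodes ERp72. Its isoform Pdia4-201 had 48.7 FPKM (bounds 47.6 and 49.7 FPKM) in the liver library labelled Adar1-/- Mavs-/- and 53.4 FPKM (bounds 52.4 and 54.4 FPKM) in the liver library labelled Adar1-/-, a log2 ratio of -0.14. An assembled isoform of 942 bases added 19.2 FPKM in the liver library labelled Adar1-/- alone. The summed log2 ratio was -0.58, and length weighting gave -0.30. Pdia6 (mm9 chr12:17273351-17291576) encodes P5, another isomerase of this family. Its level rested on 1 isoform, Pdia6-201, with 59.0 FPKM (bounds 57.8 and 60.2 FPKM) in the liver library labelled Adar1-/- Mavs-/- and 61.1 FPKM (bounds 60.0 and 62.3 FPKM) in the liver library labelled Adar1-/-. The bounds overlapped, and the log2 ratio was -0.057 summed, -0.061 with full-span isoforms and -0.034 with length weighting. It was -0.37 with TPM and 0.071 with an upper quartile factor.

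Xbp1 (mm9 chr11:5420662-5425896) had 25.8 FPKM (bounds 24.9 and 26.8 FPKM) in the liver library labelled Adar1-/- Mavs-/- and 30.2 FPKM (bounds 29.3 and 31.2 FPKM) in the liver library labelled Adar1-/-. All 4 reference isoforms with the Xbp1 symbol were listed at 0 in both liver libraries. The level belonged to ENSMUST00000109866, a reference isoform of 1772 bases that has no symbol in the annotation used and was counted under Xbp1 because it overlaps the gene. It had 22.6 FPKM (bounds 21.7 and 23.5 FPKM) in the liver library labelled Adar1-/- Mavs-/- and 30.2 FPKM (bounds 29.3 and 31.2 FPKM) in the liver library labelled Adar1-/-. In the liver library labelled Adar1-/- Mavs-/- an assembled isoform of 6044 bases, chr11:5421757-5427800, added 3.23 FPKM and reaches past the end of the gene. The log2 ratio was -0.22 summed, -0.41 with full-span isoforms and 0.16 with length weighting, so the direction of Xbp1 depended on the weight given to that isoform.

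**Figure D3:**
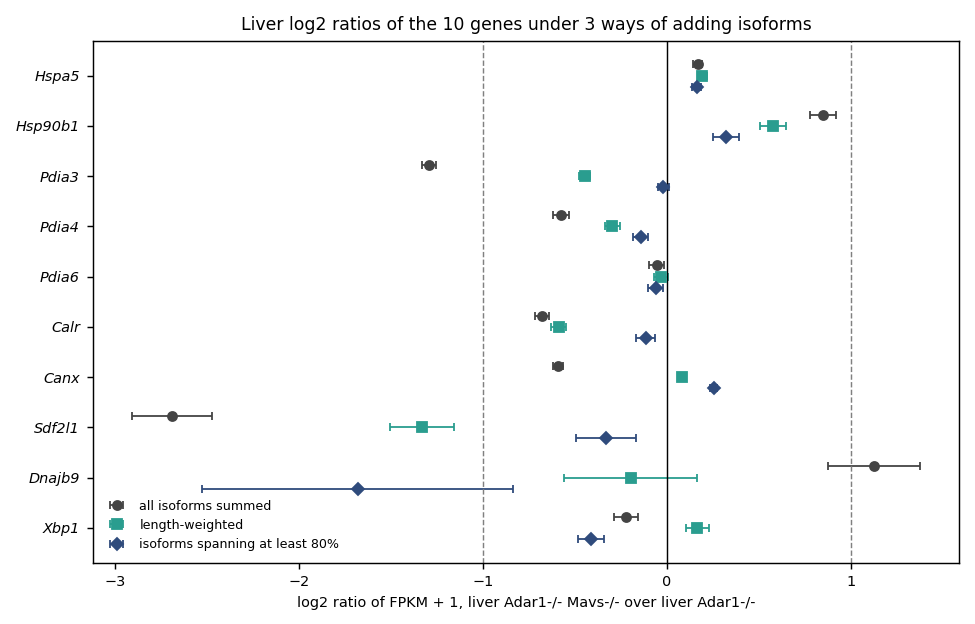
Liver log2 ratios of FPKM plus 1 for the 10 genes, Adar1-/- Mavs-/- over Adar1-/-, with all isoforms summed (grey circles), length-weighted (green squares) and with isoforms spanning at least 80% of the gene (blue diamonds). Bars are the half-width propagated from the deposited bounds, which cover estimation within a library only, and dashed lines mark 2-fold. Pdia6 and Hspa5 lay at nearly the same place in all 3, while Sdf2l1 moved between -2.69 and -0.33 and Dnajb9 between 1.12 and -1.68.

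Few of the annotated isoforms carried these levels. Of the 35 reference isoforms that carry a symbol of the 10 genes, 12 were above 0 in the liver library labelled Adar1-/- Mavs-/- and 13 in that labelled Adar1-/-. Assembled isoforms above 0 numbered 4 and 5 in the same libraries, and ENSMUST00000109866 of Xbp1 adds 1 to each. Of isoforms above 0, 5 of 17 in the liver library labelled Adar1-/- Mavs-/- and 8 of 19 in the liver library labelled Adar1-/- carried the status LOWDATA, a flag of the deposited tables that also marked Canx-201 in both. Short isoforms held 39.8% of the Calr sum in the liver library labelled Adar1-/- Mavs-/- and 59.4% in the liver library labelled Adar1-/-. They held 0% of the Pdia3 sum in the liver library labelled Adar1-/- Mavs-/- and 59.1% in the liver library labelled Adar1-/-. For Hsp90b1 the shares were 30.5% and 0% in the same libraries. Over all liver genes, 1551 of 2262 summed calls (68.6%) were made the same way with length weighting and 1305 (57.7%) with full-span isoforms. Of the 3 summed calls among the 10 genes, 1 (Sdf2l1) was made the same way with length weighting and 0 with full-span isoforms.

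By level of their full-span isoforms the 10 genes stood in nearly the same order in both liver libraries. Hsp90b1 and Hspa5 led in both liver libraries, with 215.1 and 192.9 FPKM in the liver library labelled Adar1-/- Mavs-/- and 171.0 and 170.9 FPKM, with overlapping bounds, in the liver library labelled Adar1-/-. Canx and Calr came next and changed places between the libraries. Pdia3, Pdia6, Pdia4 and Xbp1 followed in that order in both, at 74.4, 59.0, 48.7 and 22.6 FPKM in the liver library labelled Adar1-/- Mavs-/- and 74.9, 61.1, 53.4 and 30.2 FPKM in the liver library labelled Adar1-/-. Sdf2l1 and Dnajb9 were lowest, at 5.68 and 1.85 FPKM in the liver library labelled Adar1-/- Mavs-/- and 7.36 and 8.09 FPKM, with overlapping bounds, in the liver library labelled Adar1-/-. By summed level the order differed more between the libraries. Hsp90b1, Calr and Hspa5 led in the liver library labelled Adar1-/- Mavs-/-, at 309.7, 224.6 and 192.9 FPKM. Calr, Canx and Pdia3 led in the liver library labelled Adar1-/-, at 358.3, 234.2 and 182.9 FPKM. Sdf2l1 ranked 10 of the 10 genes in the first library and 8 in the second. Among genes of at least 1 FPKM, Hsp90b1 ranked 255 of 12448 in the first library and 380 of 13019 in the second.

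The other ER genes were taken from lists of 82 symbols in 7 roles, of which 79 were found in the liver tables and 77 were counted. Summed over isoforms, 5 were called higher and 7 called lower in the liver library labelled Adar1-/- Mavs-/-, which is near the 6.60% and 9.73% of all counted genes. Their median log2 ratio was -0.39, against -0.12 over all counted genes, and 66.2% of them lay below 0, against 58.0%. Length weighting gave a median of -0.36 against -0.15, and 8 of the 12 calls were made the same way. With full-span isoforms 3 were called higher and 13 lower of 67 counted, against 6.73% and 14.9% of all counted genes, with a median of -0.41 against -0.19. Of the 12, Dnajc1 and Syvn1 were listed at 0 in the liver library labelled Adar1-/- Mavs-/-, and Erlec1, Ssr4 and Derl3 in the liver library labelled Adar1-/-, so no fold is given for these 5.

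**Figure D4:**
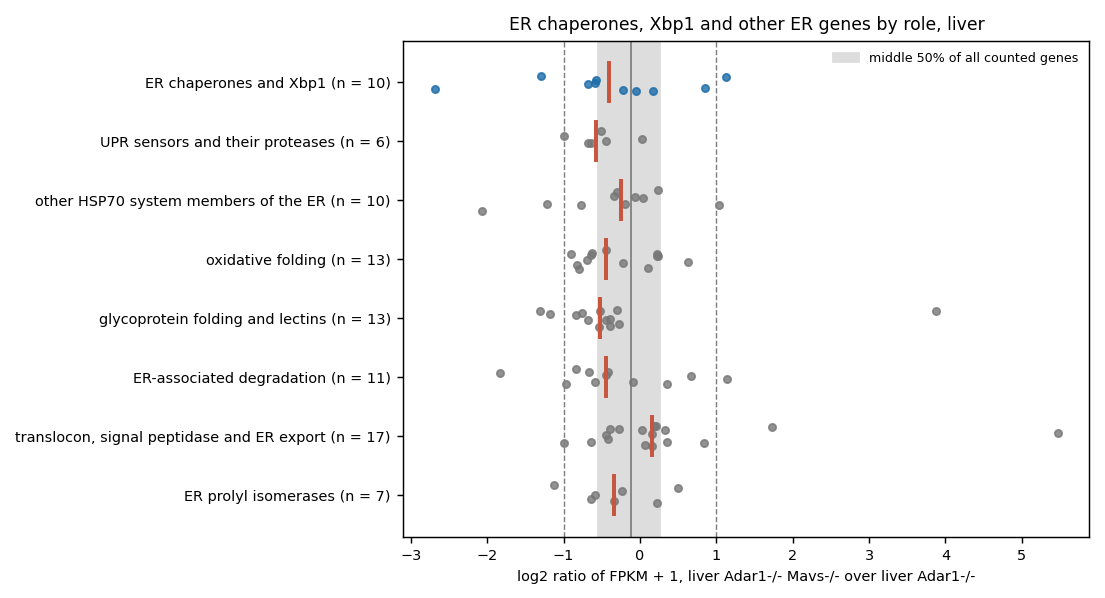
Liver log2 ratios of FPKM plus 1, Adar1-/- Mavs-/- over Adar1-/-, for the 10 genes (blue) and for the other ER genes by role (grey), with all isoforms summed. Red bars are list medians, the shaded band and grey line are the middle 50% and the median of all counted genes, and dashed lines mark 2-fold. List medians ran from -0.58 for the sensors and their proteases to 0.16 for the translocon and export list, and points beyond 3 are genes listed at 0 in the liver library labelled Adar1-/-.

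Among the stress sensors and the proteases that cut ATF6, 6 were counted, 0 higher and 1 lower, with a median of -0.58. Ern1, which encodes IRE1, had 6.15 FPKM in the liver library labelled Adar1-/- Mavs-/- and 10.1 FPKM in the liver library labelled Adar1-/- (-0.65). Atf6 had 10.8 and 17.9 FPKM (-0.68), Eif2ak3, which encodes PERK, had 5.07 and 7.21 FPKM (-0.44), and Mbtps1, the site-1 protease, had 7.62 and 16.2 FPKM in the same libraries, just past 2-fold. Mbtps1 was at -0.66 with length weighting, inside 2-fold. The 4 lay below 0 under all 3 ways of adding isoforms. The rest of this list, named after their values were seen, were Atf6b and Mbtps2. Atf6b was at 0.025 summed, -0.38 with length weighting and -1.01 with full-span isoforms. Mbtps2 was at -0.51 summed and -0.44 with length weighting. With full-span isoforms 5 were counted, without Mbtps2, and the 1 lower was Atf6b.

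Of 10 other genes of the HSP70 system, 1 was higher and 2 lower, with a median of -0.24. Creld2, a secreted ER stress protein, had 7.39 FPKM in the liver library labelled Adar1-/- Mavs-/- and 18.5 FPKM in the liver library labelled Adar1-/- (-1.22, but -0.55 with length weighting and -0.044 with full-span isoforms). Hyou1, the nucleotide exchange factor of BiP, had 8.37 and 14.9 FPKM (-0.77). Dnajc10, a J-domain reductase, had 23.2 and 10.7 FPKM (1.04, but 0.39 with length weighting and 0.52 with full-span isoforms) in the same libraries. Sil1, another exchange factor, was at 0.23 summed, -0.64 with length weighting and -1.32 with full-span isoforms.

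Of 13 oxidative folding genes, 0 were called either way when summed, with a median of -0.44. With length weighting 1 was lower (Qsox1), and with full-span isoforms 2 of 11 were lower (Qsox1 and Pdia5, the second named after its value was seen). Qsox1, a sulfhydryl oxidase, was lowest, with 4.18 FPKM in the liver library labelled Adar1-/- Mavs-/- and 8.67 FPKM in the liver library labelled Adar1-/- (-0.91, and -1.01 with length weighting and -1.78 with full-span isoforms). Txndc5, a disulfide isomerase, had 16.4 and 29.3 FPKM (-0.80), Tmx1, a membrane-bound one, had 72.9 and 46.6 FPKM (0.63), and Tmx4 was at 0.23. Of 13 glycoprotein folding genes, 1 was higher and 2 lower, with a median of -0.53. The lower ones were Mogs and Prkcsh, which encode glucosidase I and the beta subunit of glucosidase II, the enzymes that trim the sugars calnexin reads. Mogs had 9.07 FPKM in the liver library labelled Adar1-/- Mavs-/- and 23.8 FPKM in the liver library labelled Adar1-/- (-1.31), and Prkcsh had 9.75 and 23.2 FPKM (-1.18). Both were also past 2-fold with length weighting, at -1.29 and -1.03. Uggt1, the glucosyltransferase that returns misfolded glycoproteins to calnexin, was at -0.28 and the mannosidase-like Edem3 at -0.30.

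Of 11 ER-associated degradation genes, 1 was higher and 1 lower, with a median of -0.44. Vcp, the ATPase that extracts misfolded proteins, had 16.2 FPKM in the liver library labelled Adar1-/- Mavs-/- and 32.4 FPKM in the liver library labelled Adar1-/- (-0.97). Herpud1, a stress-induced part of the degradation complex, was at -0.84, Derl2 had 13.2 and 7.88 FPKM (0.67, but 1.05 with length weighting and 2.34 with full-span isoforms, both past 2-fold) and the conjugating enzyme Ube2j1 was at 0.35. Of 7 prolyl isomerases, 0 were higher and 1 lower, with a median of -0.34, and Fkbp2, Fkbp7, Ppib and Fkbp9 were at -0.64, -0.59, 0.23 and 0.50.

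Translocon, signal peptidase and export genes were the only list with a median above 0, at 0.16 over 17 genes with 2 higher and 0 lower, and with length weighting that median was -0.21. With full-span isoforms it was 0.21 over 15 genes, with 1 higher and 3 lower. Sec61b, a translocon subunit, had 73.2 FPKM in the liver library labelled Adar1-/- Mavs-/- and 21.3 FPKM in the liver library labelled Adar1-/- (1.73, but 0.76 with length weighting and -4.48 with full-span isoforms, so no direction is given for it). Ssr2, of the translocon-associated complex, had 122.1 and 67.4 FPKM (0.84, but 0.11 with length weighting and -0.030 with full-span isoforms). Kdelr1 and Kdelr2, receptors that return escaped chaperones to the ER, were at -0.99 and -0.64, at -0.83 and -0.61 with length weighting, and at -1.04 and -0.64 with full-span isoforms.

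Markers of other cell types also differed between the liver libraries. Their values have all isoforms summed, and the other ways of adding isoforms were not run for them. Over all counted liver genes, 6.60% were called higher and 9.73% lower. Hepatocyte markers had a median log2 ratio of 0.12 with 0 of 12 called. Of 10 counted muscle markers, 9 were called lower and 1, Tnnc1, called higher in the liver library labelled Adar1-/- Mavs-/-, with summed levels of 12.8 FPKM there and 90.05 FPKM in the liver library labelled Adar1-/-. Fibroblast and stellate markers summed to 152.6 FPKM in the liver library labelled Adar1-/- Mavs-/- and 256.2 FPKM in the liver library labelled Adar1-/-, with 2 of 8 lower. Macrophage markers summed to 224.7 and 155.2 FPKM in the same libraries, with 4 of 10 higher. Endothelial markers summed to 64.0 and 101.4 FPKM, with 2 of 8 lower, and erythroid markers to 2599 and 2004 FPKM, with 2 of 6 higher. Those 6 were the ones found in liver among 8 erythroid symbols, and they include no globin. Plasma cell markers summed to 14.5 and 18.5 FPKM with 0 of 3 called, and pancreas acinar markers to 2.73 and 4.96 FPKM with 0 of 1 called, Ptf1a being at 0 in both libraries. Markers listed at 0 were Ramp2 (endothelial), Prss2 and Pnlip (acinar) in the liver library labelled Adar1-/- Mavs-/- and Tnnc1 (muscle) and Cd68 (macrophage) in the liver library labelled Adar1-/-. The part of these cell types in the ER gene differences was not tested.

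In E11.5 embryos, with median scaling, the chaperone genes that could be read differed little between the libraries. Xbp1 was then lower in the Adar1-/- Mavs-/- library by less than 2-fold. With TPM, whose total here covers only the named genes of the chromosomes read in both embryo libraries, Xbp1 was past 2-fold, at -1.42. Hsp90b1 and Canx were then at -0.92 and -0.85. None of the 3 was called with median scaling, against 6.57% higher and 9.80% lower of 1918 counted genes. Nor was any with length weighting, against 5.87% and 6.36% of 1856, or with full-span isoforms, against 10.1% and 11.0% of 1568. Hsp90b1 had 88.1 FPKM (bounds 85.7 and 90.4 FPKM) in the Adar1-/- Mavs-/- library and 117.0 FPKM (bounds 113.6 and 120.3 FPKM) in the Adar1-/- library before scaling. After scaling by the median of the 972 genes of at least 5 FPKM in both libraries, which multiplied the Adar1-/- Mavs-/- values by 1.34, its log2 ratio was 0.010. Hsp90b1-203, listed at 0 in the liver library labelled Adar1-/-, had 43.3 FPKM in the embryo Adar1-/- Mavs-/- library and 56.7 FPKM in the embryo Adar1-/- library, close to the 44.8 and 60.3 FPKM of Hsp90b1-201.

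Canx had 90.4 FPKM (bounds 86.8 and 94.1 FPKM) in the embryo Adar1-/- Mavs-/- library and 114.2 FPKM (bounds 109.8 and 118.6 FPKM) in the embryo Adar1-/- library, a log2 ratio of 0.083 after scaling. Canx-202 was present in both, at 40.8 and 56.6 FPKM. The signs for Hsp90b1 and Canx turned with the scaling, to -0.41 and -0.33 with FPKM as deposited and to -0.92 and -0.85 with TPM, and Hsp90b1 was at -0.061 with full-span isoforms. Xbp1 had 28.3 FPKM (bounds 27.2 and 29.4 FPKM) in the embryo Adar1-/- Mavs-/- library and 54.7 FPKM (bounds 48.4 and 61.0 FPKM) in the embryo Adar1-/- library, a log2 ratio of -0.52. It lay at -0.57 with full-span isoforms, -0.53 with length weighting, -0.93 on the deposited scale, -1.42 with TPM and -0.40 with an upper quartile factor. With isoforms of status OK only, Xbp1 was at 5.25 and Canx at -5.87, since the Xbp1 isoforms of the embryo Adar1-/- library and the Canx isoforms of the embryo Adar1-/- Mavs-/- library carried LOWDATA. ENSMUST00000109866 had 28.3 FPKM in the embryo Adar1-/- Mavs-/- library and 47.4 FPKM in the embryo Adar1-/- library, and Xbp1-201 was listed at 0 in the embryo Adar1-/- Mavs-/- library and had 7.25 FPKM (bounds 3.34 and 11.2 FPKM) in the embryo Adar1-/- library.

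**Figure D5:**
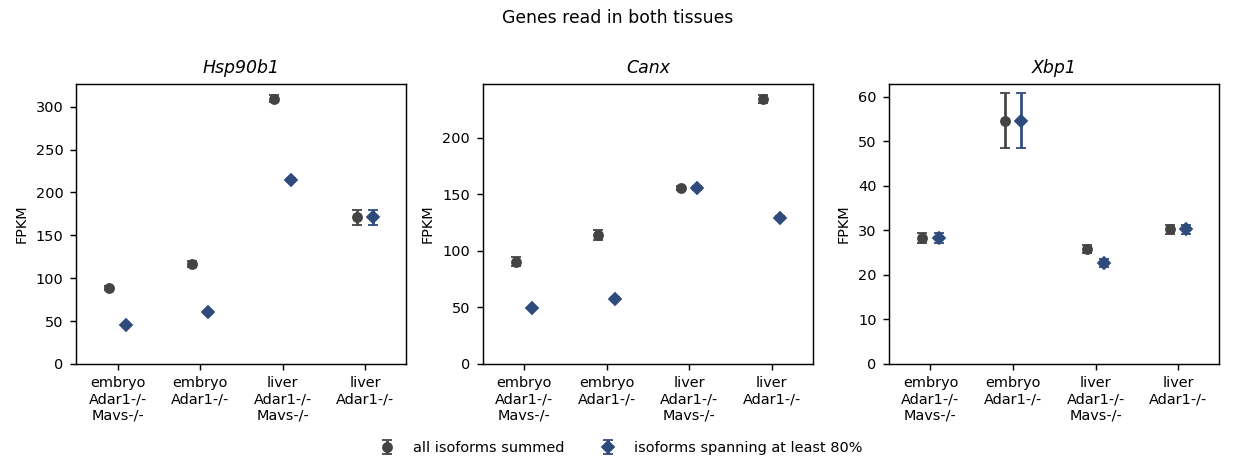
FPKM as deposited of Hsp90b1, Canx and Xbp1 in the 4 libraries, with all isoforms summed (grey circles) and with isoforms spanning at least 80% of the gene (blue diamonds). Bars are the deposited bounds, combined over isoforms, and the y axes start at 0. Full-span Hsp90b1 was 215.1 and 171.0 FPKM in the liver libraries and 44.8 and 60.3 FPKM in the embryo libraries, with Adar1-/- Mavs-/- first.

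Of the other ER genes, 10 were counted in embryos, with 0 higher, 1 lower and a median of 0.15, against -0.12 over all counted embryo genes. The lower one, named after its value was seen, was Ern1, with 0.699 FPKM in the Adar1-/- Mavs-/- library and 3.52 FPKM in the Adar1-/- library (-1.22). It was at -0.32 with length weighting. With length weighting 1 was higher and 0 lower of 11, with a median of 0.028, and with full-span isoforms 0 were higher and 1 lower of 8, with a median of -0.0079. Pdia6 and Dnajb9 lie beyond the part of chromosome 12 read in the embryo Adar1-/- library and had 74.6 FPKM (bounds 73.1 and 76.2 FPKM) and 1.31 FPKM (bounds 1.09 and 1.54 FPKM) in the embryo Adar1-/- Mavs-/- library. The other 5 genes lie on chromosomes 2, 6, 8 and 16, which the embryo values do not cover.

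The genes whose profile over the 4 libraries was nearest to that of Xbp1, by Euclidean distance of centred log2 values among 933 genes, were Ptprk, Srsf2 and Emc6, at distances of 0.12, 0.12 and 0.18. The nearest to Hsp90b1 were Gm12663, Ggnbp2 and Gm12618, at 0.20, 0.22 and 0.24. With 4 libraries such closeness is a description only.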

How the data were processed

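Total RNA was extracted with Trizol and sequenced on Illumina libraries, per the labels' protocols. Per the submitters' processing notes, which give no roles, the build was mm9 and the tools included TopHat 1.4.0 and Cufflinks 2.2.1. The deposited values are FPKM per isoform, with bounds and a status, per the file headers. The deposited coverage was, by its values, a multiple of FPKM that is fixed within a library. With strand handling not given in the sources, reads of overlapping antisense genes may be mixed. Symbols came from GENCODE M21, which matched 86.7%, 86.7%, 88.7% and 90.2% of Ensembl identifiers (liver Adar1-/- Mavs-/-, liver Adar1-/-, then the embryos in that order). An isoform without a symbol was counted under the reference gene it overlapped best in its Cufflinks gene. Isoform FPKM were summed. Ratios used FPKM plus 1, after scaling Adar1-/- Mavs-/- values to a median log2 ratio of 0 over genes of at least 5 FPKM in both libraries (factor 0.995 in liver from 6890 genes, 1.34 in embryos from 972). A gene was counted from 1 FPKM in either library. Positions of genes are mm9, 1-based, and promoter positions GRCm38.p6. No test was possible with 1 library per group. Full-span and length-weighted sums were added after the values were seen. The genes and lists were chosen with earlier results of these data known. All 10 genes are named, and per role the 2 highest and 2 lowest log2 ratios among genes above 0 in both libraries and of at least 5 FPKM in either. The scripts ran in Python 3.11.15 with pandas 2.3.3 and were tested on simulated data.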

Additional observations from a re-analysis of the deposited data

Results flagged for a closer look

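Canx had opposite signs in the tissues when all isoforms were summed, with a log2 ratio of -0.59 in liver and 0.083 in embryos, each Adar1-/- Mavs-/- over Adar1-/-. The difference between the tissues was not tested, since each rests on 1 library per group. With full-span isoforms the signs were the same, at 0.25 in liver and 0.15 in embryos.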

How the results depend on the processing

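No paired analysis was possible because each group has 1 library. The count of genes called higher in liver (1 of 10) was 0 with TPM, with reference isoforms only, with full-span isoforms and with length weighting, and 2 with isoforms of status OK only. The count called lower (2 of 10) was 1 with full-span isoforms and 1 with length weighting. The median of the 10 (-0.40) was -0.71 with TPM, -0.27 with an upper quartile factor, -0.087 with isoforms of status OK only, -0.089 with full-span isoforms and -0.12 with length weighting. The median of the other ER genes (-0.39) was -0.70 with TPM and -0.26 with the upper quartile factor. Dnajb9 reversed, to -1.12 with reference isoforms only, -1.68 with full-span isoforms and -0.20 with length weighting. Status OK alone leaves no Pdia3 or Canx isoform above 0 in liver, so it gives no value for them. Scaling shifted liver log2 ratios by -0.32 (TPM) and 0.13 (upper quartile) before the pseudocount, and embryo ones by -0.42 (as deposited), -0.94 (TPM) and 0.12 (upper quartile). The higher share of liver calls over all genes, 40.4%, was 24.1% with TPM, and the embryo share, 40.1%, was 20.8% as deposited and 7.30% with TPM. Status OK put Xbp1 at 2.07 and Hspa5 at -1.47 by dropping isoforms of status LOWDATA. Over single genes, 73 of 128 values stayed within the width of the bounds. The sign differed from that of the summed value in 19 of the 128, and 3 of these, all of Dnajb9, belonged to a gene called 2-fold. In liver, signs of uncalled genes turned for Canx and Xbp1 with length weighting and for Canx with full-span isoforms. They also turned for Hspa5 with TPM, for Pdia6 with the upper quartile factor (0.071), and for Xbp1 and Hspa5 with status OK. Depth is known only as coverage per FPKM, and the bounds cover estimation within a library.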
